A study of Homo sapiens with 12 samples.

Results

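The regions described here are 807 longer retained introns, those above 200 bases, out of 1152 retained introns and 10358 splicing events of all types with a value in all 7 columns of the deposited MISO table. A retained intron event is a pair of neighbouring exons together with the gap between them. Members were chosen by the length of that gap and by completeness, a rule that does not use the size of their values. The choice was made with earlier results of these data known. The cells were HEK293T, an established human embryonic kidney line, carrying lentiviral hairpins: a scramble hairpin (1 library) or hairpins against PRMT1, PRMT3, PRMT4, PRMT5 or PRMT7 (2 libraries each, with different hairpins) or PRMT6 (1 library with 1 hairpin). Every group therefore shared the line and the viral vector, and the labels list no other allele or agent. The authors' files give a single number per target and region, so nothing below carries an SD or a test, and no replicate stands behind a difference. Transcript levels were not analysed here, so the strength of each knockdown and the identity of the line were not checked. Read depth behind the values is unknown.

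Introns are removed by the spliceosome, which recognises the 5′ splice site (donor) through U1 snRNA and the 3′ splice site (acceptor) through U2AF, after a run of pyrimidines. An intron that stays in a polyadenylated transcript can hold it in the nucleus, bring a stop codon into the reading frame, or form part of an alternative untranslated region, and genes for splicing factors are known for introns of this kind. Protein arginine methyltransferases (PRMTs) methylate arginine in many of the proteins that act here, including hnRNP, Sm and RGG-rich RNA-binding proteins. The series asks how loss of each PRMT bears on RNA splicing. Retention is measured by PSI (percent spliced in), which here is the fraction, from 0 to 1, of an event's spliced and unspliced forms that keep the intron. More of the retained form and less of the spliced form cannot be told apart in such a ratio.

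The sequences of 4 introns show what these regions look like: AURKB, which was lower in every knockdown, HNRNPH1, near the lower length limit, AMBRA1, which has no stop in frame, and GNL3, which carries a minor-type donor. They are printed 5′ to 3′ on the strand of the gene, from GENCODE release 29 transcripts (GRCh38) that keep the intron. Capitals mark the first and last 2 bases, the first in-frame stop where there is one, and, in GNL3, the donor core TATCCT.
AURKB: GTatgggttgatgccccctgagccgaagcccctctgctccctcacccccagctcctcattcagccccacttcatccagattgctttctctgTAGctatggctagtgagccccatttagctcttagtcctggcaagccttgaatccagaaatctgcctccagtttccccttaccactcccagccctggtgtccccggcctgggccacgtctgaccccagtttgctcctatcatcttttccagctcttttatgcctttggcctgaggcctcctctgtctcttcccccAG
HNRNPH1: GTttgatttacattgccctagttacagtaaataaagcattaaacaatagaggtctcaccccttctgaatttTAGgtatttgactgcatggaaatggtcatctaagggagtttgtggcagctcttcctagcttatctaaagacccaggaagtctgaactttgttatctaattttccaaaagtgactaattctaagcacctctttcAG
AMBRA1: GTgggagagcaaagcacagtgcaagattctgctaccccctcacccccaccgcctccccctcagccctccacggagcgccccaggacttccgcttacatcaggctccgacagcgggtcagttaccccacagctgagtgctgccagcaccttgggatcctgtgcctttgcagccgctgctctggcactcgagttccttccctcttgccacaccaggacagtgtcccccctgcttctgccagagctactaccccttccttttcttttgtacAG
GNL3: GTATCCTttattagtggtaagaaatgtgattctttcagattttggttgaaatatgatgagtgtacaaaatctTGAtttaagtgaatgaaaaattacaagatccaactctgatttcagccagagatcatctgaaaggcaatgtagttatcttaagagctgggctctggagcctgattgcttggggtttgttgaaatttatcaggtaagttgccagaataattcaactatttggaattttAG
In the authors' build, GRCh37, the AURKB intron lies at chr17:8110207-8110493 (287 bases, minus strand), HNRNPH1 at chr5:179048037-179048242 (206 bases, minus strand), AMBRA1 at chr11:46564532-46564801 (270 bases, minus strand) and GNL3 at chr3:52724721-52724960 (240 bases, plus strand). All 4 introns lie between coding exons. The first stop in frame came at base 92 of the AURKB intron, at base 72 in HNRNPH1 and at base 73 in GNL3.

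The longer introns ran from 202 to 9080 bases, with a median of 602 and quartiles at 334.5 and 1148. They came from 632 gene entries, 419 on the plus and 388 on the minus strand. The 807 events covered 757 distinct introns, since 48 introns appeared in 2 or more events with different flanking exons (98 events), and 128 entries had at least 2 events. Such events share reads and are not independent. Of 1156 longer introns with any value, 349 lacked a value in at least 1 column, and these were left out. The number of longer introns with a value ran from 923 in PRMT5 to 1033 in PRMT6 knockdown, with 952 in scramble. Just above the length limit stood introns of NDST2 (202 bases, scramble PSI 0.99), the pseudogene NSUN5P1 (202 bases, 0.88) and HNRNPH1 (206 bases, 0.39). Just below it stood introns of SRSF1 (200 bases, 0.24), DYNLL1 (199 bases, 0.02) and POMGNT1 (199 bases, 0.92).

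Retention of the longer introns spread over the whole scale and was most often near an end of it. In scramble, 178 introns (22.1%) had a PSI below 0.1, 371 (46.0%) lay at 0.1 to 0.9 and 258 (32.0%) lay above 0.9. The ends were stable across columns: 147 introns (18.2%) stayed below 0.1 in all 7 columns and 185 (22.9%) stayed above 0.9. The mean PSI was highest in scramble, at 0.532, and stood at 0.527 in PRMT3, 0.524 in PRMT7, 0.522 in PRMT5, 0.510 in PRMT1, 0.509 in PRMT4 and 0.502 in PRMT6 knockdown. Without replicates, no neighbours in this order can be said to differ. PRMT6 knockdown had the largest share below 0.1, 28.0%, while its share above 0.9 was 31.2%. Short introns, with a mean of 0.521 in scramble, spanned 0.509 to 0.515 in the knockdowns.

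**Figure D1:**
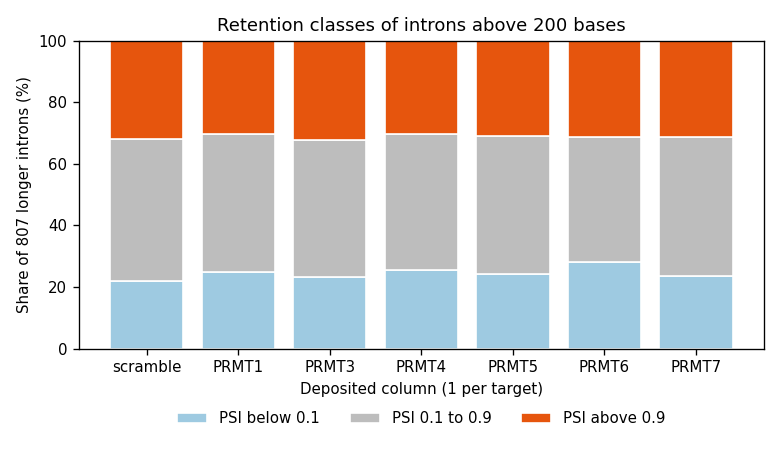
Share of the 807 longer introns (y axis, percent) with a PSI below 0.1, at 0.1 to 0.9 and above 0.9 in each deposited column (x axis). The lowest class takes 22.1% in scramble and 28.0% in PRMT6 knockdown.

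Sequence was found for 697 of the 807 introns (86.4%), by gene, strand, intron length and the length of at least 1 flanking exon. Of these, 667 (95.7%) began with GT and ended with AG, and 22 (3.16%) began with GC and ended with AG. The rest, among them introns of GNE, DDX46 and PLCXD1, had other ends. The donor core TATCCT, searched on the gene's strand at intron bases 2 to 7, stood in 5 of the 697 introns. It is known from introns of the minor (U12-type) spliceosome, and 1 of the short introns held it. These 5 spanned the scale: CCPG1 stood at 0.90 in scramble, GNL3 at 0.54, MAEA at 0.12, NOL11 at 0.08 and RPL4 at 0.01. For GNL3, a nucleolar GTP-binding protein, the values were 0.44 for PRMT1, 0.50 for PRMT3, 0.41 for PRMT4, 0.62 for PRMT5, 0.35 for PRMT6 and 0.56 for PRMT7 knockdown. PRMT6 was the lowest column for GNL3 and PRMT5 the highest. The GNL3 event also carries the symbol of a snoRNA, SNORD19B, and whether its reads add to these values was not tested. NOL11, a factor of ribosome biogenesis, stood at 0.21 for PRMT3 and at 0.05 to 0.07 over the other 5 knockdowns. The authors' deposited table of rMATS differences, from a second caller and read as knockdown minus scramble, gave 0.056 for NOL11 in PRMT3 and -0.045 for GNL3 in PRMT6 knockdown.

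Donors that matched the consensus more closely went with lower retention. The match counts how many of 9 bases, the last 3 of the exon and the first 6 of the intron, equal CAGGTAAGT, with A also allowed at the first and G at the sixth base. The donors of 8 introns that recur below show the range, from weak to strong, with exon bases in lower case and intron bases in capitals.
AURKB donor: gcaGTATGG
RELL2 donor: ccgGTACCG
C1QTNF6 donor: cagGTGCTG
DDX39B donor: gatGTAAAT
ZNF248 donor: acaGTAAGT
NFATC4 donor: aagGTGGGT
SRSF5 donor: ctgGTAAGT
SUPT7L donor: aagGTGAGT
AURKB matched at 4 of 9 bases, RELL2 at 5, C1QTNF6 and DDX39B at 6, ZNF248 at 7, NFATC4 and SRSF5 at 8 and SUPT7L at 9. Over all introns with sequence, the median scramble PSI was 0.93 at 4 matches (25 introns), 0.91 at 5 (65), 0.68 at 6 (199), 0.33 at 7 (247), 0.20 at 8 (133) and 0.19 at 9 (21), and the other 7 introns had fewer matches. Across 697 introns, Spearman's rho between match and scramble PSI was -0.34, and it was -0.32 within the 487 introns between coding exons. These introns all come from the same library and many share genes, so the rho describes this column alone. Among 303 short introns it was -0.43.

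The place of an intron in its gene went with its level. The median scramble PSI was 0.24 for 487 introns between coding exons, 0.70 for 40 in 5′ UTRs, 0.91 for 122 in 3′ UTRs and 0.92 for 48 in noncoding transcripts. The 110 introns without a matched sequence had a median of 0.93. The acceptor side was less ordered: rho between scramble PSI and the pyrimidine content of the 17 bases that end 3 bases before the exon was -0.12 over the 697 introns. The acceptors below show a pyrimidine-rich pair, AURKB and DDX39B, and a poor pair, SUPT7L and DDX17, with the closing AG in capitals and 3 exon bases after it.
AURKB acceptor: tcctctgtctcttcccccAGcca
DDX39B acceptor: acccccttcctcccccccAGcca
SUPT7L acceptor: tcttattccaaaatgttgAGata
DDX17 acceptor: actcatcattgacgtggaAGatg
Pyrimidines took 94.1% of that window in AURKB and DDX39B, 64.7% in SUPT7L and 52.9% in DDX17. The median GC content was 51.9% in the longer introns and 59.3% in the short ones.

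**Figure D2:**
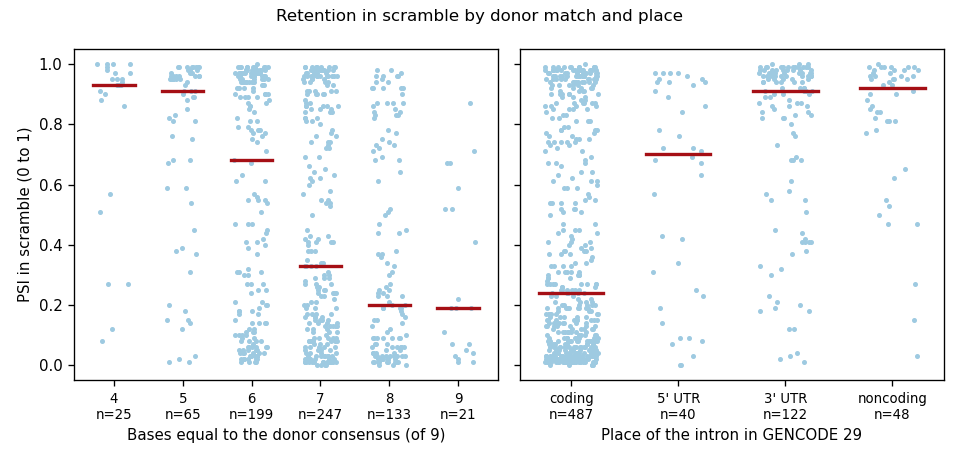
PSI in scramble (y axis, 0 to 1) of the longer introns with sequence, by the number of donor bases equal to the consensus (left) and by place in GENCODE release 29 (right). Each point is an intron and red bars are medians, which run from 0.93 at 4 matches to 0.19 at 9.

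Most introns between coding exons would close the reading frame if kept. A stop in frame was present in 440 of 479 introns whose frame could be read (91.9%), with the first stop at a median of 53 bases. Among short introns the share was 58.1%. Of the 39 longer introns without a stop, 25 had a length that is a multiple of 3, so that the frame also goes on after them. Among these 25 is AMBRA1, a scaffold of autophagy initiation, whose sequence is given above. Introns of ABL2, a tyrosine kinase, and TROAP, a spindle-associated protein, also had no stop in frame.

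A difference from scramble is called below where PSI differed by at least 0.1, which is a rule of size. By this rule, 262 longer introns (32.5%) differed in at least 1 knockdown, beside 97 short introns (28.1%) and 21.5% of all events. The count depended on the level: 1.12% of those below 0.1 in scramble differed in at least 1 knockdown, against 96.4% of those at 0.5 to 0.7. At 0.9 or more it was 10.7%, with 0 higher in each knockdown. An intron below 0.1 cannot be 0.1 lower, and one above 0.9 cannot be 0.1 higher. All 6 comparisons share the scramble column, so a high or low scramble value moves all of them.

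More longer introns were lower than higher in every knockdown, and the balance was most one-sided in PRMT6, PRMT4 and PRMT1. In PRMT6 knockdown 110 introns were lower and 11 higher, beside 4.33% lower and 2.5% higher over all events. Here 13.6% of the longer introns were lower, against 5.80% of the short ones. In PRMT4 knockdown 88 were lower and 12 higher, beside 4.24% and 3.23% over all events. In PRMT1 knockdown 83 were lower and 12 higher, beside 4.41% and 2.99%. The short introns were lower in 7.54% of cases for PRMT4 and in 4.64% for PRMT1, where the longer introns stood at 10.9% and 10.3%.

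The remaining 3 knockdowns were more balanced. In PRMT3 knockdown 70 introns were lower and 50 higher, beside 6.12% and 4.37% over all events. In PRMT5 knockdown 68 were lower and 35 higher, beside 3.71% and 4.57%. In PRMT7 knockdown 44 were lower and 26 higher, beside 3.8% and 2.54%. For these 3 the share of longer introns that were lower, 8.67%, 8.43% and 5.45%, was below that of short introns, 9.86%, 9.57% and 6.96%. Whether the longer and short introns differ in this was not tested.

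**Figure D3:**
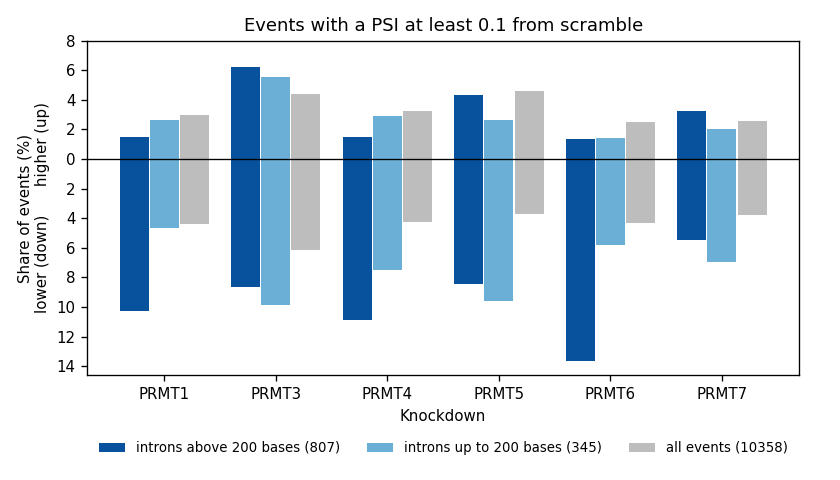
Share of events (y axis, percent) with a PSI at least 0.1 higher (up) or lower (down) than scramble in each knockdown (x axis), for longer introns, short introns and all events. The longest bar is PRMT6, with 13.6% of the longer introns lower.

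The direction depended on the reference for 3 knockdowns. With the mean of the other 5 as reference, PRMT6 still had more lower than higher introns (60 and 15), as did PRMT1 (28 and 9) and PRMT4 (29 and 14). Against this reference PRMT3 had 27 lower and 56 higher, PRMT5 had 20 and 55, and PRMT7 had 6 and 34. Differences from this mean cancel over the knockdowns in every intron, so not all knockdowns can be lower on average. The counts therefore rank the knockdowns among themselves and say nothing about scramble. Between pairs of knockdowns, PRMT1 and PRMT4 differed by at least 0.1 in 42 introns (5.20%), the fewest of 15 pairs, and PRMT3 and PRMT6 in 149 (18.5%), the most. Over all events these pairs differed in 5.87% and 11.0%. Of the 149 introns, 113 were higher in PRMT3. Where the range over the knockdowns reached 0.1, in 323 introns, PRMT6 alone was lowest in 94 and highest in 35. PRMT3 alone was highest in 96 and lowest in 43. PRMT6 is the only knockdown column from 1 library. Neither these counts nor those against the mean of the other 5 were made over all events.

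Scramble stood above all 6 knockdowns in 118 longer introns (14.6%) and below all 6 in 32 (3.97%), beside 8.45% and 8.61% over all events. The short introns were close to the longer ones here, at 14.5% and 5.22%. At least 0.1 lower in all 6 were 11 of the 807 introns, beside 42 of 10358 events of all types (0.405%). None of the 807 was at least 0.1 higher in all 6, beside 16 events of all types (0.154%). Among 345 short introns 3 were lower and 0 higher in all 6. With 1 scramble library, a difference shared by all 6 knockdowns cannot be told apart from a property of that library.

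The 11 introns belong to ACADVL, AURKB, C14orf93, C1QTNF6, DIS3L2, PDLIM5, RANGRF, RELL2, SEPTIN3, STON2 and VIM. AURKB, the kinase of the chromosomal passenger complex in mitosis, stood at 0.51 in scramble, 0.27 for PRMT1, 0.34 for PRMT3, 0.35 for PRMT4, 0.30 for PRMT5, 0.21 for PRMT6 and 0.30 for PRMT7 knockdown. RELL2, a relative of the TNF receptor family member RELT, stood at 0.67 in scramble, 0.30 for PRMT1, 0.37 for PRMT3, 0.38 for PRMT4, 0.54 for PRMT5, 0.53 for PRMT6 and 0.57 for PRMT7 knockdown, for an intron in the 5′ UTR (chr5:141017309-141017736). DIS3L2, an exonuclease that degrades RNAs with uridine tails, stood at 0.62 in scramble, 0.38 for PRMT1 and PRMT3, 0.40 for PRMT4 and PRMT6, 0.44 for PRMT5 and 0.48 for PRMT7 knockdown (chr2:233200585-233201178). Scramble was the highest column in each, with a gap of 0.10 or more to the next.

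C1QTNF6, a secreted C1q-related protein, had a 3′ UTR intron (chr22:37576908-37578191) at 0.76 in scramble, 0.58 for PRMT1, 0.59 for PRMT3, 0.65 for PRMT4, 0.52 for PRMT5, 0.49 for PRMT6 and 0.58 for PRMT7 knockdown. VIM, the intermediate filament protein vimentin, stood at 0.66 in scramble and at 0.45, 0.36, 0.40, 0.47, 0.44 and 0.41 for PRMT1, PRMT3, PRMT4, PRMT5, PRMT6 and PRMT7 knockdown. STON2, an endocytic adaptor, had the second longest of all members, 8738 bases, at 0.70 in scramble and 0.49 to 0.58 over the knockdowns. The other 5 stood higher in scramble: PDLIM5, a PDZ and LIM domain protein, at 0.91 against 0.68 to 0.77, SEPTIN3, a septin GTPase, at 0.84 against 0.64 to 0.73, ACADVL, an enzyme of fatty acid oxidation, at 0.85 against 0.67 to 0.74, RANGRF, a Ran-binding protein, at 0.87 against 0.54 to 0.76, and C14orf93 at 0.97 against 0.79 to 0.85.

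The second caller placed these differently in size. In the authors' deposited table, C1QTNF6 ran from -0.325 to -0.190 and RELL2 from -0.288 to -0.073 over the 6 knockdowns. For VIM the authors' deposited table gave -0.013 to -0.007, so that intron did not reach 0.1 there. ACADVL ran from -0.134 to -0.034, C14orf93 from -0.149 to -0.057 and SEPTIN3 from -0.163 to -0.027 in the authors' deposited table. Of the matched introns, C1QTNF6 alone was at least 0.1 lower there in all 6 knockdowns. C1QTNF6 and C14orf93 were matched by the intron alone, and the other 5 had no matched entry.

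**Figure D4:**
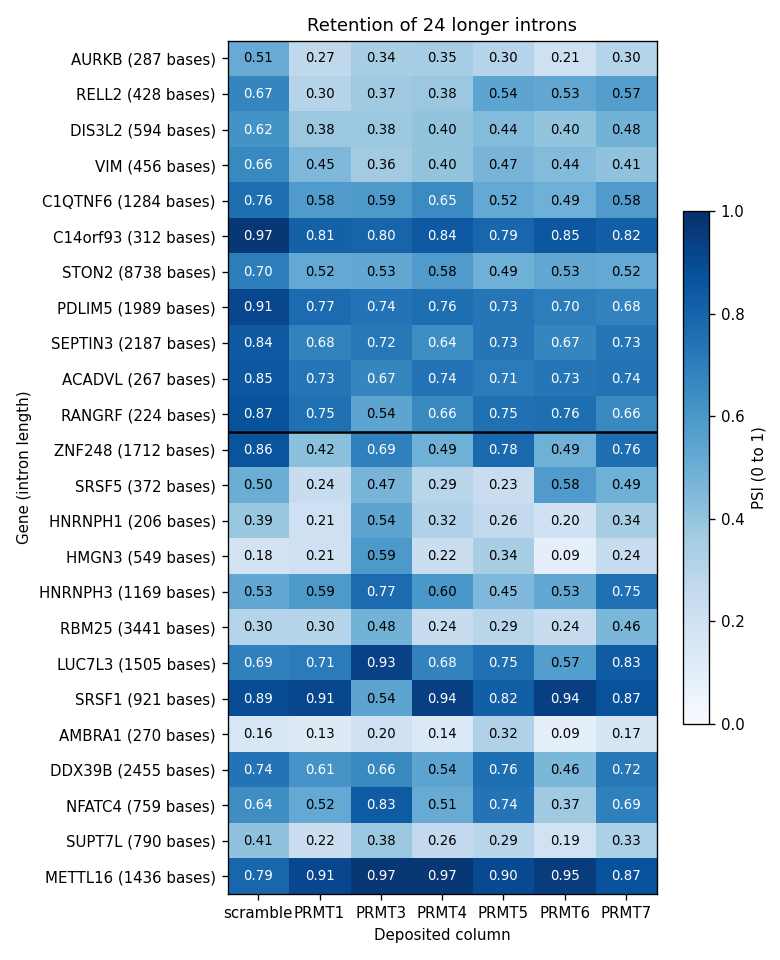
PSI (colour and printed value, 0 to 1) of 24 longer introns (y axis, gene and length) in the 7 deposited columns (x axis). Above the line are the 11 introns lower in all 6 knockdowns, and below it are introns with other patterns, such as SRSF1, at 0.54 for PRMT3 knockdown and 0.89 in scramble.

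Introns outside this group divided the knockdowns. ZNF248, a zinc finger protein, had a 1712-base intron (chr10:38120241-38121952) at 0.86 in scramble, 0.42 for PRMT1, 0.69 for PRMT3, 0.49 for PRMT4, 0.78 for PRMT5, 0.49 for PRMT6 and 0.76 for PRMT7 knockdown. PRMT1, PRMT4 and PRMT6 lay apart from the other columns by 0.20 or more. PIDD1, the death-domain protein of the complex that activates caspase-2, stood at 0.60 in scramble, 0.37 for PRMT1 and PRMT4, 0.46 for PRMT3, 0.64 for PRMT5, 0.48 for PRMT6 and 0.43 for PRMT7 knockdown. For PIDD1 the authors' deposited table gave -0.178 in PRMT1, -0.187 in PRMT4 and 0.037 in PRMT5 knockdown. PINK1, a kinase of mitophagy, stood at 0.37 in scramble, 0.28 for PRMT4 and 0.13 to 0.17 over the other 5. Its values in the authors' deposited table ran from -0.075 to -0.015, so PINK1 was lower there too but reached 0.1 in no knockdown. METTL16, an RNA methyltransferase, was the only member at least 0.1 higher in 5 knockdowns, at 0.79 in scramble, 0.91 for PRMT1, 0.97 for PRMT3 and PRMT4, 0.90 for PRMT5, 0.95 for PRMT6 and 0.87 for PRMT7 knockdown.

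The members are grouped below by lists of genes, and each count is given beside the 32.5% of all longer introns that differed in at least 1 knockdown. Genes of SR proteins, which activate splicing, and their kinases held 12 members, of which 7 (58.3%) differed in at least 1 knockdown. The 12 came from 8 gene entries, and several of the 7 were events of SRSF5. The SRSF5 intron at chr14:70238262-70238633 stood at 0.50 in scramble, 0.24 for PRMT1, 0.47 for PRMT3, 0.29 for PRMT4, 0.23 for PRMT5, 0.58 for PRMT6 and 0.49 for PRMT7 knockdown. PRMT1, PRMT4 and PRMT5 formed a low group and the other 4 columns a high one. An SRSF5 intron upstream, 259 bases long, had no such split, at 0.85 in scramble and 0.67 to 0.76 over all knockdowns, and for this SRSF5 intron the authors' deposited table gave -0.049 to -0.016. SRSF1 had a 921-base intron in its 3′ UTR (chr17:56081363-56082283) at 0.89 in scramble, 0.91 for PRMT1, 0.54 for PRMT3, 0.94 for PRMT4, 0.82 for PRMT5, 0.94 for PRMT6 and 0.87 for PRMT7 knockdown. PRMT3 was the lowest column there, whereas in the 200-base SRSF1 intron, just under the length limit, PRMT3 was the highest at 0.67, beside 0.15 to 0.36 over the others. TRA2A, an SR-like activator, had a 5′ UTR intron at 0.95 in scramble, 0.81 for PRMT5 and PRMT6, and 0.94 to 0.95 over the other 4 knockdowns. For TRA2A the authors' deposited table gave -0.028 in PRMT5 and -0.108 in PRMT6 knockdown.

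Genes of hnRNP proteins and other RNA-binding splicing regulators held 14 members, 4 of them overlapping events of QKI, and 8 (57.1%) differed in at least 1 knockdown. In PRMT3 knockdown 6 of the 14 were higher and 0 lower, beside 6.20% higher and 8.67% lower over all longer introns, and 3 of the 6 were QKI events. In PRMT6 knockdown 0 were higher and 4 lower, beside 1.36% and 13.6%, and 2 of the 4 were QKI events. HNRNPH1, whose 206-base intron is printed above, stood at 0.39 in scramble, 0.21 for PRMT1, 0.54 for PRMT3, 0.32 for PRMT4, 0.26 for PRMT5, 0.20 for PRMT6 and 0.34 for PRMT7 knockdown. HNRNPH3, of the same family, stood at 0.53 in scramble, 0.59 for PRMT1, 0.77 for PRMT3, 0.60 for PRMT4, 0.45 for PRMT5, 0.53 for PRMT6 and 0.75 for PRMT7 knockdown. RBM25, a regulator of 5′ splice site choice, had a 3441-base intron at 0.30 in scramble, 0.30 for PRMT1, 0.48 for PRMT3, 0.24 for PRMT4, 0.29 for PRMT5, 0.24 for PRMT6 and 0.46 for PRMT7 knockdown. PRMT3 was the highest column in all 3 introns, with PRMT7 close behind in HNRNPH3 and RBM25. RBM25 in the authors' deposited table stood at 0.172 in PRMT3 and 0.102 in PRMT7 knockdown, and HNRNPH3 at 0.093 and 0.037. For HNRNPH1 the authors' deposited table gave 0.047 in PRMT3, -0.079 in PRMT1 and -0.081 in PRMT6 knockdown.

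QKI, an RNA-binding regulator of splicing, stood at different levels with different flanking exons. Its 4 events share a donor and use 2 acceptors and 2 ends of the last exon. The 947-base intron (chr6:163984752-163985698) stood at 0.92 in scramble with a downstream exon of 5479 bases and at 0.34 with an exon of 13930 bases, the largest gap among the 48 introns found in several events. With the shorter exon it was 0.67 for PRMT5 and 0.78 to 0.90 over the other knockdowns. With the longer exon PRMT5 was again the lowest, at 0.25, and PRMT1 the highest, at 0.48. The authors' deposited table lists this QKI intron with the shorter exon only, at -0.216 in PRMT5, -0.103 in PRMT1 and -0.105 in PRMT3 knockdown. Of the 48 introns, 3 had a gap of at least 0.1 between their events in scramble.

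Core spliceosome genes had 11 members, of which 3 (27.3%) differed. LUC7L3, a protein associated with U1 snRNP, had a 3′ UTR intron at 0.69 in scramble, 0.71 for PRMT1, 0.93 for PRMT3, 0.68 for PRMT4, 0.75 for PRMT5, 0.57 for PRMT6 and 0.83 for PRMT7 knockdown. PRMT3 was the highest column and PRMT7 the next, as in the RBM25 intron, and PRMT6 was the lowest. SF1, which binds the branch point, had a 432-base intron at 0.81 in scramble, 0.71 for PRMT4, 0.67 for PRMT6 and 0.79 to 0.90 over the other 4 knockdowns. For SF1 the authors' deposited table gave -0.050 in PRMT4 and -0.022 in PRMT6 knockdown. RNA helicase genes had 15 members, of which 6 (40%) differed. DDX39B, a helicase of splicing and mRNA export, had a 2455-base intron (chr6:31500689-31503143) at 0.74 in scramble, 0.61 for PRMT1, 0.66 for PRMT3, 0.54 for PRMT4, 0.76 for PRMT5, 0.46 for PRMT6 and 0.72 for PRMT7 knockdown. DDX17, a helicase that acts in transcription and splicing, had a 3940-base intron at 0.47 in scramble, 0.67 for PRMT3 and 0.60 for PRMT7, and 0.38 to 0.54 over the other 4 knockdowns. For DDX17 the authors' deposited table gave 0.132 in PRMT3 and 0.074 in PRMT7 knockdown. The DDX39B event also carries the symbol of the readthrough gene ATP6V1G2-DDX39B.

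Mitosis and cell cycle genes had 25 members, of which 12 (48.0%) differed. In PRMT1 knockdown 6 of the 25 were lower and 0 higher, beside 10.3% and 1.49% over all longer introns. Besides AURKB, CENPT, a kinetochore protein, had a 301-base intron at 0.64 in scramble, 0.52 for PRMT1, 0.74 for PRMT3, 0.47 for PRMT4, 0.52 for PRMT5, 0.56 for PRMT6 and 0.61 for PRMT7 knockdown. For CENPT the authors' deposited table gave -0.098 in PRMT4 and 0.112 in PRMT3 knockdown. CDK17, a cyclin-dependent kinase, stood at 0.72 in scramble, 0.55 for PRMT1 and PRMT7, 0.63 for PRMT6 and 0.74 to 0.81 over the other 3. The list was matched in part by name, and CDC42SE1 and CDK5RAP3 count in it without being cell cycle kinases. Chromatin genes had 22 members, of which 10 (45.5%) differed. HMGN3, a nucleosome-binding protein, had a 549-base intron (chr6:79911444-79911992) at 0.18 in scramble, 0.21 for PRMT1, 0.59 for PRMT3, 0.22 for PRMT4, 0.34 for PRMT5, 0.09 for PRMT6 and 0.24 for PRMT7 knockdown, the widest range over the knockdowns of all members, 0.50.

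In most other lists the share that differed was below the 32.5% of all longer introns. Ribosomal proteins and translation factors held 42 members, with a median scramble PSI of 0.06, and 3 (7.14%) differed. Among them was RPS9, a small subunit protein, at 0.58 in scramble, 0.31 for PRMT3, 0.36 for PRMT7 and 0.43 to 0.54 over the other 4 knockdowns. For RPS9 the authors' deposited table gave -0.078 in PRMT3 and -0.062 in PRMT7 knockdown. Of 20 members in mitochondrial ribosome and respiratory chain genes 3 (15%) differed, and of 21 in vesicle traffic 6 (28.6%). None of 16 members in ubiquitin ligases and deubiquitinases, 7 in DNA repair and replication, 3 in the list of snoRNA host genes or 1 in PRMT genes differed by at least 0.1. That last member, a 256-base intron of PRMT5, stood at 0.98 in scramble and 0.97 to 0.99 over the knockdowns. The snoRNA list is partial. Events of GNL3, RACK1 and RPS2 also carry a snoRNA symbol and are not in it, and GNL3, given above, did differ by at least 0.1. Of 9 members in transcription machinery 2 (22.2%) differed, and of 7 in mRNA 3′ end processing, export and decay 1 (14.3%). The exception was the list of tRNA synthetases and tRNA modification, where 5 of 7 (71.4%) differed, and 3 of the 5 lie in the pseudogenes NSUN5P1 and NSUN5P2.

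PRMT3 knockdown also had other introns far above scramble. ABL2, with a 309-base intron that keeps the frame, stood at 0.27 in scramble, 0.40 for PRMT1, 0.56 for PRMT3, 0.32 for PRMT4, 0.40 for PRMT5, 0.33 for PRMT6 and 0.34 for PRMT7 knockdown. TTC14 stood at 0.18 in scramble, 0.40 for PRMT3, 0.30 for PRMT5, 0.25 for PRMT7 and 0.08 to 0.18 over the other 3. The authors' deposited table gave 0.183 for ABL2 and 0.181 for TTC14 in PRMT3 knockdown. BEND7, with an intron of 5515 bases, went the other way, at 0.73 in scramble, 0.46 for PRMT3 and 0.59 to 0.82 over the other 5 knockdowns. In PRMT4 knockdown the lowest column of ARGLU1, an arginine- and glutamate-rich coactivator that acts in splicing, was at 0.39, with 0.67 in scramble, 0.55 for PRMT1, 0.64 for PRMT3, 0.53 for PRMT5, 0.51 for PRMT6 and 0.78 for PRMT7 knockdown.

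In PRMT5 knockdown, AMBRA1 stood at 0.32, with 0.16 in scramble, 0.13 for PRMT1, 0.20 for PRMT3, 0.14 for PRMT4, 0.09 for PRMT6 and 0.17 for PRMT7 knockdown. UVSSA, a factor of transcription-coupled repair, stood at 0.35 for PRMT5 and 0.34 for PRMT3 knockdown, with 0.16 in scramble and 0.11 to 0.24 over the other 4. ZNF559, a zinc finger gene, stood at 0.60 for PRMT5 and 0.50 for PRMT3 knockdown, with 0.40 in scramble and 0.17 to 0.32 over the other 4. Lower in PRMT5 were the 3′ UTR introns of HLTF, a DNA translocase of replication fork repair, at 0.53 beside a scramble value of 0.83 and 0.68 to 0.82 over the other 5, and SLC33A1, the acetyl-CoA transporter of the endoplasmic reticulum, at 0.69 against 0.90 and 0.82 to 0.91. The HLTF and SLC33A1 columns for PRMT5 lay below all other columns. The authors' deposited table gave 0.108 for AMBRA1 in PRMT5 knockdown.

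PRMT6 knockdown gave the lowest column of several introns that were intermediate elsewhere. NFATC4, a calcium-regulated transcription factor, had a 759-base intron (chr14:24846085-24846843) at 0.64 in scramble, 0.52 for PRMT1, 0.83 for PRMT3, 0.51 for PRMT4, 0.74 for PRMT5, 0.37 for PRMT6 and 0.69 for PRMT7 knockdown. SUPT7L, a subunit of the STAGA coactivator, had an intron with a full donor match (chr2:27884256-27885045) at 0.41 in scramble, 0.22 for PRMT1, 0.38 for PRMT3, 0.26 for PRMT4, 0.29 for PRMT5, 0.19 for PRMT6 and 0.33 for PRMT7 knockdown. TRMU, the mitochondrial tRNA thiouridylase, stood at 0.33 in scramble, 0.19 for PRMT6 and 0.24 to 0.42 over the other 5. In the authors' deposited table the PRMT6 differences were -0.258 for NFATC4, -0.229 for SUPT7L, -0.181 for TRMU and -0.133 for DDX39B. GALT, an enzyme of galactose metabolism, was higher by MISO, at 0.93 for PRMT6 and 0.63 in scramble. The authors' deposited table, matched for GALT by the intron alone, gave -0.037.

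In PRMT7 knockdown, PSME2, a subunit of the proteasome activator PA28, stood at 0.33, with 0.15 in scramble and 0.07 to 0.20 over the other 5 knockdowns. PPP4C, a protein phosphatase, had a 546-base intron at 0.35 for PRMT7, with 0.19 in scramble and 0.14 to 0.27 over the others. The authors' deposited table gave 0.004 for PSME2 and -0.002 for PPP4C, so neither difference was present there. SEC14L1, a lipid-binding protein, was lowest in PRMT7 at 0.53, with 0.77 in scramble and 0.64 to 0.72 over the other 5. For SEC14L1 the authors' deposited table, matched by the intron alone, gave -0.056 in PRMT7 knockdown.

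In PRMT6 knockdown the difference from scramble grew with intron length. The mean difference was -0.0177 over 164 introns of 201 to 300 bases, -0.0228 over 170 of 301 to 500, -0.0326 over 230 of 501 to 1000, -0.0335 over 171 of 1001 to 2000 and -0.0571 over 72 above 2000. The short introns stood at -0.0109. In the longest class 18 introns (25%) were lower and 0 higher in PRMT6, beside 13.6% and 1.36% over all longer introns, and PRMT4 also had 18 lower there, with 3 higher. Spearman's rho between length and difference was -0.16 over the 807 introns in PRMT6 and -0.04 to 0.01 over the other 5 knockdowns. All points of a rho share 2 libraries' columns, and it is given as a description. The longest class also had more introns at 0.1 to 0.9 in scramble, 56.9% against 43.3% to 48.2% in the other 4 classes, and such introns can differ more. Within the 371 introns at 0.1 to 0.9 the PRMT6 means were -0.0347, -0.0420, -0.0623, -0.0595 and -0.0832 in the same order, with a rho of -0.17. Over 513 matched introns, the means in the authors' deposited table were -0.0189, -0.0159, -0.0389, -0.0389 and -0.0485. PRMT4, PRMT1 and PRMT3 also had their lowest means in the longest class, at -0.0414, -0.0242 and -0.0174, without a steady fall over the shorter classes.

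**Figure D5:**
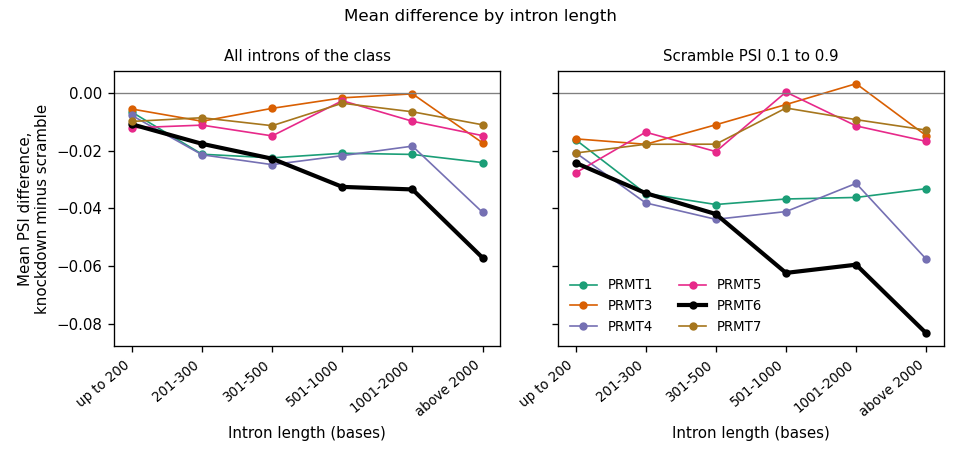
Mean PSI difference, knockdown minus scramble (y axis), by intron length class (x axis), for all introns (left) and those with a scramble PSI of 0.1 to 0.9 (right). The thick PRMT6 line runs from -0.0109 in the short introns to -0.0571 above 2000 bases on the left.

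Donor match also went with the PRMT6 difference, with a rho of -0.16 over the 697 introns with sequence and -0.06 to -0.03 in the other 5 knockdowns. The 21 introns with a full match had a mean PRMT6 difference of -0.0733. Of these 21, 8 were lower and 0 higher, beside 101 lower and 8 higher among all 697. In PRMT5 knockdown 5 of the 21 were lower and 1 higher, in PRMT1 4 and 0, in PRMT3 4 and 1, in PRMT4 3 and 0, and in PRMT7 0 and 1. The means of the 21 introns were also below 0 in PRMT4 (-0.0395), PRMT1 (-0.0352), PRMT5 (-0.0295) and PRMT3 (-0.0286), with 0.0119 in PRMT7 knockdown. Scramble stood above all 6 knockdowns in 28.6% of them, beside 15.6% of all introns with sequence. GC content, which runs lower in longer introns (rho -0.27), had a rho of 0.07 with the PRMT6 difference. Donor match also went with the scramble level, and the donor values were not limited to introns at a middle level. The parts of length, donor, GC content and scramble level in the difference were not tested.

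The 2 callers gave the same side for most called introns, but not for the few higher in PRMT4 and PRMT6 knockdown, and differed in size. Of the 807 members, 535 had a match in the authors' deposited table, 481 with the same exons and 54 with the same intron only. Of matched introns called in PRMT6 knockdown, 76 of 81 lay on the same side in the authors' deposited table, 56 of 62 in PRMT1, 62 of 66 in PRMT3, 55 of 65 in PRMT4, 56 of 61 in PRMT5 and 37 of 42 in PRMT7. Among those higher by MISO, 1 of 6 lay on the same side in PRMT4 and 2 of 4 in PRMT6 knockdown. It was 6 of 8 in PRMT1, 31 of 33 in PRMT3, 18 of 18 in PRMT5 and 12 of 15 in PRMT7. Fewer reached 0.1 in both: of introns lower by MISO, 35 of 77 did in PRMT6 knockdown in the authors' deposited table, 12 of 59 in PRMT4, 10 of 54 in PRMT1, 9 of 43 in PRMT5, 7 of 33 in PRMT3 and 6 of 27 in PRMT7. Of introns higher by MISO, 15 of 33 did in PRMT3, 6 of 18 in PRMT5 and 4 of 15 in PRMT7 knockdown. The numbers were 3 of 8 in PRMT1, 1 of 4 in PRMT6 and 0 of 6 in PRMT4. Counted within the authors' deposited table alone, 58 of 513 matched members (11.3%) were at least 0.1 lower and 9 higher in PRMT6 knockdown, beside 16.4% and 5.78% of all retained introns listed there. For PRMT4 the authors' deposited table had 36 members lower and 7 higher, beside 14.8% and 4.78%. For PRMT1 it had 24 lower and 10 higher in the authors' deposited table, beside 11.1% and 5.25%. PRMT3 had 23 and 23 in the authors' deposited table, beside 11.8% and 6.48%, PRMT5 had 21 and 16, beside 11.2% and 6.2%, and PRMT7 had 20 and 12, beside 10.5% and 5.27%. The members' shares in that table were below its background in both directions for all 6 knockdowns. That background holds introns of any length, also those without a value in all 7 MISO columns. The 2 sets are thus not alike, and the matched short introns were not counted there.

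Reads of near-identical gene copies can be placed in more than 1 of them. The values of the pseudogenes NSUN5P1 and NSUN5P2, which resemble NSUN5, are uncertain for this reason.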

How the data were processed

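The labels' protocols describe stranded poly(A) RNA-seq of HEK293T cells with the TruSeq kit and paired-end reads from a HiSeq X10. Tools named are cutadapt 1.18 and HISAT, and the build is GRCh37, per the submitters' processing notes. No annotation, HISAT version, or version or setting of either splicing caller is stated, and neither is the way in which 2 hairpin libraries gave 1 column. The authors deposited PSI as a fraction from 0 to 1 in a table named for MISO, and differences in PSI in a table named for rMATS. The sign of the second table is not stated. Over 5522 to 5770 matched cassette exons per target its values ran against knockdown minus control by MISO (Pearson's r -0.58 to -0.32 across exons, which are not replicates), so their sign was turned. Depth is unknown, and the 12 libraries cannot be told apart in the 7 columns.

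Members are the retained introns above 200 bases with a value in all 7 columns. A difference of at least 0.1 PSI is called by size, with no test. Introns were matched to GENCODE release 29 by gene symbol, chromosome, strand, intron length and at least 1 exon length, with no coordinates carried over. Named introns follow a rule: per knockdown the 10 largest higher and 10 largest lower, those that differ in all 6, up to 4 per gene list over 16 lists, the 5 longest, 3 on each side of 200 bases, and the 5 widest and 5 narrowest ranges. The text gives a part of these, and PRMT5, GNL3, NOL11 and a few other introns beside them were picked once their values were known. The members and the lists were chosen with earlier results of these data known. The code that counts differences, not any difference, was tested on simulated data. Alternatives were other thresholds, references, filters, a logit scale, 1 event per gene, introns above 300 bases and the rMATS table. An emptied line of the MISO table was not analysed here, and some introns are not reported here. Python 3.11.15, pandas 2.3.3, numpy 2.4.6, scipy 1.17.1 and matplotlib 3.10.9 were used.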

Additional observations from a re-analysis of the deposited data

How the results depend on the processing

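No paired analysis was possible because the files hold 1 column per target and no replicate of any group. For the same reason no library could be left out. Values are given in the order PRMT1, PRMT3, PRMT4, PRMT5, PRMT6 and PRMT7. At a threshold of 0.2 the introns that differed numbered 12, 19, 13, 10, 27 and 11, and at 0.05 they numbered 244, 290, 270, 260, 274 and 212. The share of lower introns at 0.2 was 100% in PRMT1, 100% in PRMT4, 90.0% in PRMT5 and 81.8% in PRMT7, and at 0.05 it was 78.3% in PRMT1, 78.5% in PRMT4 and 84.3% in PRMT6. On a logit scale, with PSI held between 0.01 and 0.99 and a difference of at least 0.5, the numbers were 250, 323, 315, 272, 339 and 226, with 75.6% lower in PRMT1, 72.4% in PRMT4, 74.6% in PRMT6 and 49.8% in PRMT3, where lower introns were then no longer the majority. With the other 5 knockdowns' mean as reference the numbers were 37 in PRMT1, 43 in PRMT4, 75 in PRMT6 and 40 in PRMT7. The share lower was then 75.7% in PRMT1, 67.4% in PRMT4 and 80.0% in PRMT6, and it turned to 32.5% in PRMT3, 26.7% in PRMT5 and 15% in PRMT7. Against this reference not all knockdowns can be lower on average, because the differences cancel in every intron. By the authors' deposited table, matched introns that differed numbered 34, 46, 43, 37, 67 and 32, with 70.6% lower in PRMT1, and fewer introns are matched there. The cause of the other shifts was not tested. A value in scramble and 1 knockdown only, a mean PSI between 0.05 and 0.95, 1 event per gene and introns above 300 bases kept each count within 1.5 times and moved each share by at most 4.20 percentage points.

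The median PSI was 0.56 in scramble and 0.56 in PRMT7 knockdown, above the means. Lower in all 6 knockdowns were 35 introns at 0.05 and 0 at 0.2, and higher in all 6 were 4 at 0.05. The 51 pairs of an intron and a knockdown checked singly, most of them given in the text, were picked for large differences with their values known. PINK1, METTL16 and the introns lower in all 6 knockdowns were not among them. Their outcome was thus largely set in advance and says little about all members. Over all members, the mean of the other 5 knockdowns as reference took the count from 95 to 37 in PRMT1 and from 100 to 43 in PRMT4. Of the 51, 50 kept their side and a size of 0.1 against the other 5 knockdowns, and EIF2B5 in PRMT4 was the exception. In the authors' deposited table, with the means of introns lower in all 6 knockdowns added, 18 of 39 did so, 16 had the same side below 0.1 and 5 changed side: EIF2B5 in PRMT4 at -0.016, DDX11 in PRMT5 at 0.001, GALT in PRMT6 at -0.037, PPP4C in PRMT7 at -0.002 and QKI in PRMT1 at -0.103. That QKI entry has the shorter downstream exon, with which MISO was also lower in PRMT1 (0.87 against 0.92). The GALT entry was matched by the intron alone. The length and PRMT6 relation within scramble PSI 0.1 to 0.9, and in the authors' deposited table, was examined after the data were seen, with a rho of -0.17 and -0.18. With depth unknown, no limit from counting can be given.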
